A study of Mus musculus with 12 samples.

Results

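The heat shock proteins and their regulator were taken as 10 genes: Hspa1b, Hspa8, Hspa5, Hsph1, Hsp90aa1, Hsp90ab1, Dnajb1, Hspb1, Hspb8 and the heat shock factor Hsf1. A gene was read where a probe set of the array named it and no other gene, and it was represented by its brightest probe set over all arrays. By this rule 8 of the 10 genes were measured, through 24 probe sets, among 18193 genes in all. Hsf1 and Hsp90ab1 are not analysed here, because no probe set names either of them alone in the annotation used.

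The study asked which genes 17βE (17β-estradiol, the main circulating estrogen) alters in 2 cell fractions of mouse bone marrow cultures. Whole bone marrow of female C57BL/6 mice, 6 weeks of age, was grown as primary culture and received 1 nM 17βE over 1 week, or none in the controls. The 4 groups were c-kit+ cells from 17βE cultures, c-kit+ cells from control cultures, CD44+ cells from 17βE cultures and CD44+ cells from control cultures, with 3 Affymetrix arrays each. The labels call the c-kit+ cells stem cells and the CD44+ cells stromal cells. Whether the 3 replicates of a group came from separate mice or cultures is not stated, so the p-values rest on a spread between arrays that may be technical. Values are RMA values on the log2 scale and 12 arrays limit the precision of every value.

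At their brightest probe sets, the markers behind the fractions' names did not pass between the fractions. Kit, the receptor that the c-kit+ label names, averaged 3.94 ± 0.023 in c-kit+ and 3.93 ± 0.13 in CD44+ cells of 17βE cultures, and 3.97 ± 0.097 in c-kit+ and 4.01 ± 0.21 in CD44+ cells of control cultures (SD, n = 3 each). For scale, 9 probe sets of Y-linked genes, which female mice lack, averaged 2.91 to 3.63 over the arrays. Cd44 lay between 11.8 and 12.5 on all 12 arrays, and Csf1r, the macrophage growth factor receptor, between 13.9 and 14.1. One of 4 Cd44 probe sets was lower on every c-kit+ than on every CD44+ array of 17βE cultures, by a difference of -0.45 (SE 0.11, limma adjusted p = 0.0776 over all probe sets), and did not pass. Its difference in control cultures was 0.028 (adjusted p = 0.953). Col1a2, a collagen of mesenchymal cells, averaged 7.80 ± 0.49 in c-kit+ and 11.35 ± 0.53 in CD44+ cells of 17βE cultures, and 7.52 ± 0.58 in c-kit+ and 10.89 ± 0.78 in CD44+ cells of control cultures. The fractions are therefore called by the labels' surface markers only. Esr1, estrogen receptor alpha, averaged 7.83 ± 0.36 in c-kit+ 17βE, 7.79 ± 0.11 in c-kit+ control, 7.59 ± 0.12 in CD44+ 17βE and 7.61 ± 0.10 in CD44+ control arrays. At the brightest probe set neither Esr1 nor Esr2, estrogen receptor beta, passed a comparison. Another of the 3 Esr1 probe sets passed as higher in c-kit+ than in CD44+ cells of control cultures, at 0.62 (SE 0.14, 1.54-fold, limma adjusted p = 0.0492 over all probe sets), with 0.27 in 17βE cultures (adjusted p = 0.625).

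Heat shock proteins are chaperones that hold, fold or hand over other proteins. HSP70 proteins such as HSPA1B and HSPA8 take up unfolded stretches with the help of J-domain partners such as DNAJB1, HSP90 acts later and keeps steroid receptors, the estrogen receptor among them, able to bind their ligand, and small heat shock proteins keep damaged proteins from clumping. Heat shock factor 1 is held inactive in unstressed cells and, when unfolded proteins accumulate, binds repeats of the letters GAA in alternating orientation ahead of the inducible genes. HSPA5, in the endoplasmic reticulum, is instead induced by the unfolded protein response through the endoplasmic reticulum stress element.

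Promoters are shown for the genes that the results turn on, as the 300 bases of RefSeq (GRCm38.p6) from 250 before to 50 after the annotated start, read 5′ to 3′ on the gene's strand. The capitals mark GAANNTTC, a pair of facing GAA units, which reads the same on both strands.
Hspa1b, chr17:34959189-34959488, minus strand: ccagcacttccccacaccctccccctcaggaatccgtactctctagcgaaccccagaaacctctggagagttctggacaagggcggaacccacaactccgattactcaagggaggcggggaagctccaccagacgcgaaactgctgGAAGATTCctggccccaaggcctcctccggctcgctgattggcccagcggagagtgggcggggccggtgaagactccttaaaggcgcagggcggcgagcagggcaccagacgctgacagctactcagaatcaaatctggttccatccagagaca
Hspb1, chr5:135887669-135887968, plus strand: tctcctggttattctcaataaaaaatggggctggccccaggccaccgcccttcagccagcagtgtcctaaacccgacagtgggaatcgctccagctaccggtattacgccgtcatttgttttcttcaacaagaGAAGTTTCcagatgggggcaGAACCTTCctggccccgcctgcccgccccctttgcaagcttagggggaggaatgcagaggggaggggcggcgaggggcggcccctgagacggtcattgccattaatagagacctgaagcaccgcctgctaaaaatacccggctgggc
Hspb8, chr5:116422815-116423114, minus strand: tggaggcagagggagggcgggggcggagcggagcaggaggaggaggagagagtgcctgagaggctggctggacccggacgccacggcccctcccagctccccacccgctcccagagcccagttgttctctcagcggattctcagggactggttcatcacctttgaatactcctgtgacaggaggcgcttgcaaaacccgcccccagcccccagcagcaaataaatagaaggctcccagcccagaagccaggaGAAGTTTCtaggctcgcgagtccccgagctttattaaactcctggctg
Hspa1b held GAAGATTC from base -104 to -97 relative to the start, and the window of its neighbour Hspa1a, identical at 296 of 300 bases, held the same letters at the same place. Hspb1 had 2 matches, from -117 and from -97, and Hspb8 had 1, from base 3 after the start. Among 32851 promoter windows in the table, 7.86% held GAANNTTC, 8.52% held the opposite arrangement TTCNNGAA, and 15.1% held at least one of them.

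A longer run of 3 alternating units, GAANNTTCNNGAA searched on both strands, stood in 0.603% of all windows and, among the members, in Hsph1 alone. In Hsph1 it overlapped one match of each shorter motif. A separate TTCNNGAA match in Hsph1 lay ahead of the start, from -54 to -47 of one annotated start and from -33 to -26 of another. The endoplasmic reticulum stress element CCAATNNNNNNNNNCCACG stood in 0.119% of windows and, among the members, in Hspa5 alone. Both are shown with up to 10 bases on each side and the match in capitals.
Hsph1: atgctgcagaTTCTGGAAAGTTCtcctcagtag
Hspa5: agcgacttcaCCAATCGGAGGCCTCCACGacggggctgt
The longer Hsph1 match lay from base 16 to 28 after the first of these starts, on chromosome 5, and from 37 to 49 after the other. The Hspa5 match lay from -65 to -47, on chromosome 2. Neither Dnajb1 window held any of these motifs, and Hspa8 and Hsp90aa1 have no promoter sequence shown. A match is a description of the letters and not evidence of binding.

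Hspa1b, the stress-inducible HSP70 (chromosome 17, 34956429 to 34959238 in GRCm38.p6), had the widest range over the arrays among the measured members, 2.42 on the log2 scale. Its 3 arrays read 8.30, 8.38 and 8.19 in c-kit+ 17βE cells, against 7.67, 7.83 and 7.52 in c-kit+ control cells. They read 9.94, 9.40 and 9.38 in CD44+ 17βE cells, against 9.44, 8.95 and 9.16 in CD44+ control cells. In c-kit+ cells every 17βE array stood above every control array, as for 5.34% of all genes, while in CD44+ cells the groups overlapped. In level the groups ran, high to low, CD44+ 17βE, CD44+ control, c-kit+ 17βE and c-kit+ control, and only the first pair of neighbours overlapped.

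**Figure D1:**
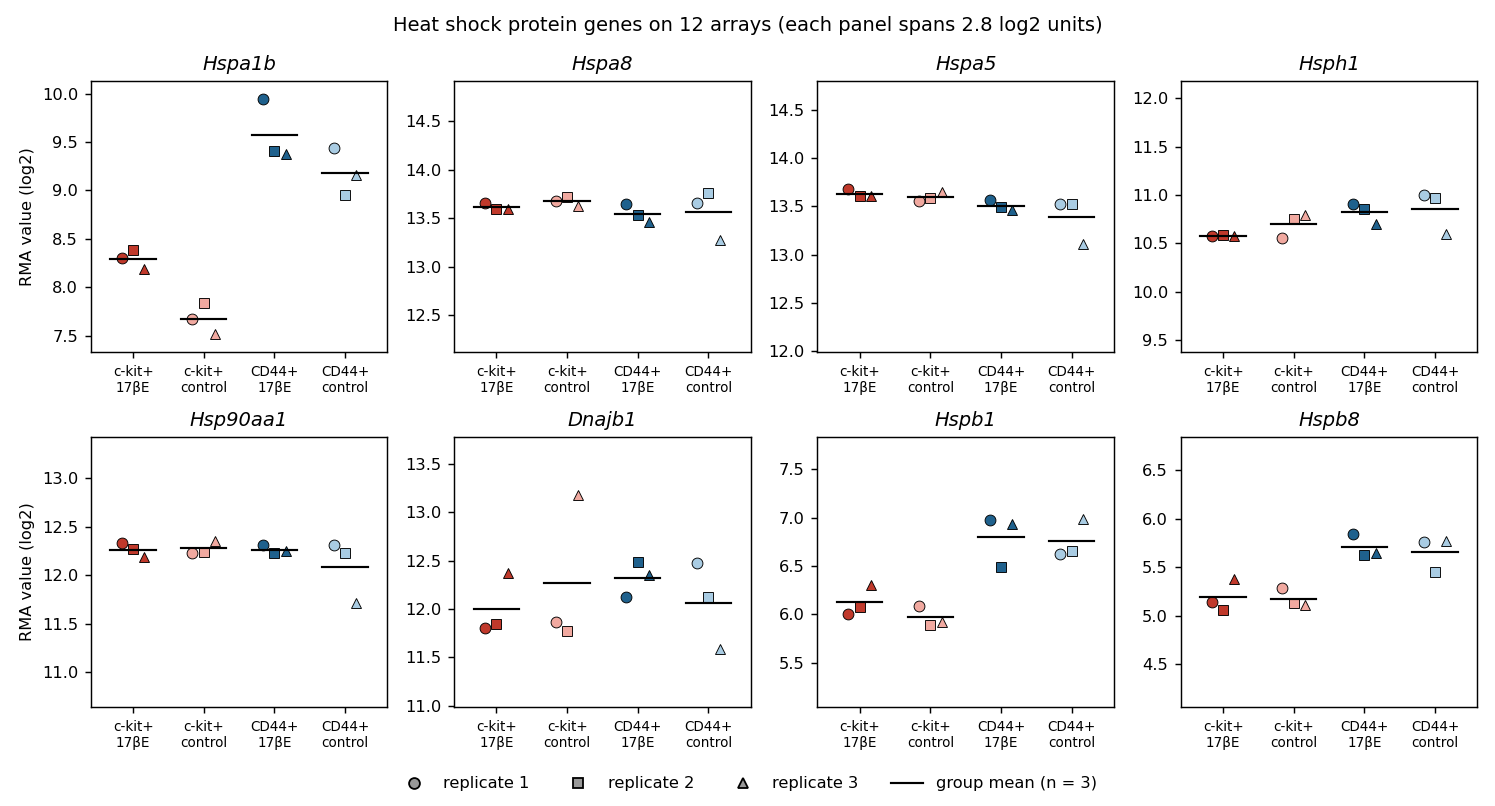
RMA value (log2, vertical axis) of the 8 measured heat shock protein genes on each of 12 arrays, by group; circles, squares and triangles are replicates 1, 2 and 3 and lines are group means (n = 3). Hspa1b, Hspb1 and Hspb8 are lower on all 6 c-kit+ arrays than on all 6 CD44+ arrays, and the other 5 genes show no such separation over all 12 arrays.

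The 17βE effect on Hspa1b did not pass in either fraction. It was 0.62 on the log2 scale in c-kit+ cells (SE 0.16, 1.53-fold, 95% interval 0.26 to 0.97, limma adjusted p = 0.346) and 0.39 in CD44+ cells (SE 0.16, 1.31-fold, interval 0.041 to 0.74, adjusted p = 0.853). Averaged over both fractions the effect was 0.50 (SE 0.12, 1.42-fold, interval 0.26 to 0.75, unadjusted p = 0.000758 and adjusted p = 0.0673), which also missed the threshold of 0.05 on the p adjusted over all 18193 genes. The adjusted p of the averaged effect fell to 0.0377 without CD44+ control replicate 1 and to 0.0325 with the replicate number as a block, so that it passed in both, and ranged from 0.00799 to 0.21 over the alternatives. The effects of the 2 fractions differed by 0.22 (interval -0.27 to 0.72, adjusted p = 1 after rounding), so neither an equal nor a larger effect in c-kit+ cells was shown. The other 2 Hspa1b probe sets gave the opposite sign, -0.12 and -0.22 (adjusted p = 1 after rounding), with CD44+ effects of 0.80 and 0.86 that did not pass (adjusted p = 0.174 and 0.209 over all probe sets).

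The other probe sets of Hspa1b, and the probe set of Hspa1a, its neighbouring and nearly identical copy, had positive 17βE differences in each fraction too. The second Hspa1b probe set read 7.39, 7.35 and 7.20 in c-kit+ 17βE against 6.80, 6.45 and 6.66 in c-kit+ control arrays, and 9.10, 9.03 and 8.73 in CD44+ 17βE against 8.58, 7.72 and 8.16 in CD44+ control arrays. The dimmest read 6.71, 6.93 and 6.75 in c-kit+ 17βE against 6.11, 5.83 and 6.50 in c-kit+ control arrays, and 8.59, 8.52 and 8.01 in CD44+ 17βE against 7.88, 7.18 and 7.46 in CD44+ control arrays. In both probe sets the 17βE arrays stood above the control arrays without overlap in each fraction. In a fit of every probe set, the averaged effect was 0.74 in the second (SE 0.13, 1.67-fold, limma adjusted p = 0.0177) and 0.76 in the dimmest (SE 0.15, 1.69-fold, adjusted p = 0.0338), and both passed. The brightest had an adjusted p of 0.0826 there. Of all 34945 probe sets, 0.787% passed that comparison.

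Hspa1a read 7.19, 6.97 and 6.90 in c-kit+ 17βE against 6.78, 6.43 and 5.92 in c-kit+ control arrays, and 7.34, 7.39 and 7.05 in CD44+ 17βE against 6.89, 7.05 and 6.67 in CD44+ control arrays. Its averaged effect was 0.52 (SE 0.13, 1.43-fold, limma adjusted p = 0.133) and did not pass. Probe sets of these copies can take up RNA of either gene, so which of them the signal came from is uncertain. Over all genes, read at the brightest probe set, 1.49% had 17βE arrays above control arrays without overlap in both fractions; Hspa1a is among them and Hspa1b, at its brightest probe set, is not.

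**Figure D2:**
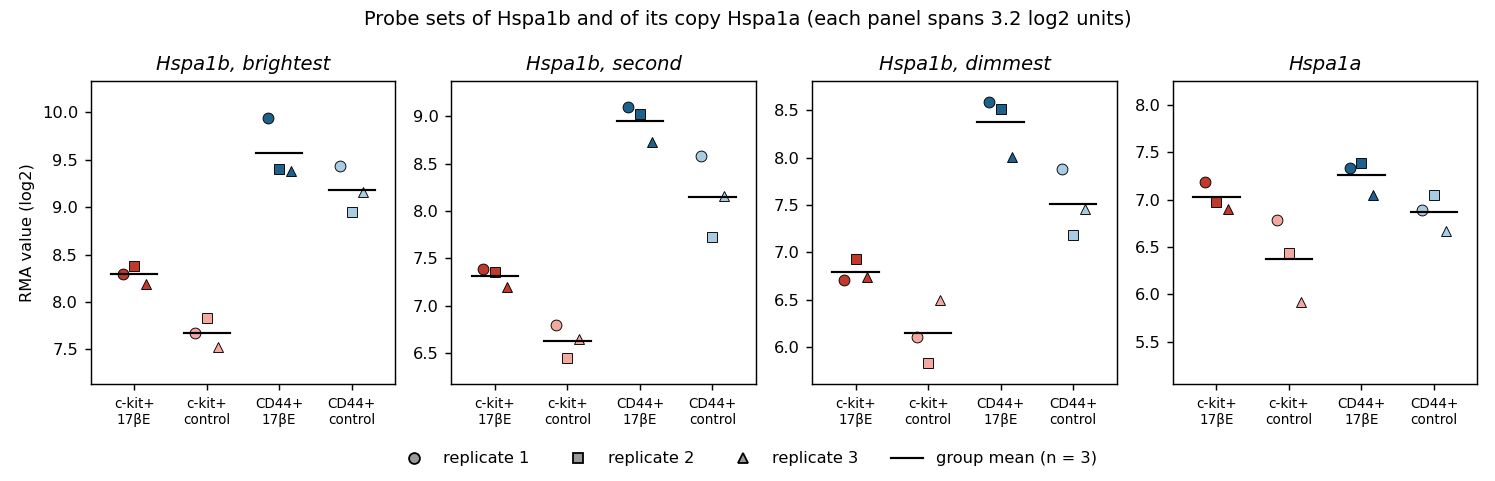
RMA value (log2) of the 3 probe sets that name Hspa1b and of the one that names its copy Hspa1a, by group, with replicates as circles, squares and triangles and group means as lines (n = 3). In each panel both 17βE means lie above the control means of the same fraction; the c-kit+ and CD44+ arrays are far apart for Hspa1b and overlap for Hspa1a.

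No member passed a 17βE comparison at its brightest probe set. In c-kit+ cells 0 of 8 members passed, where 0.181% of all genes did, and 1 of the 8, Hspa1b, had an unadjusted p under 0.05, beside 4.47% of all genes. In CD44+ cells 0 of 8 passed beside 0.291% of all genes, and again 1 had an unadjusted p under 0.05, beside 5.38%. For the averaged effect these were 0 of 8 beside 0.951%, with 1 unadjusted beside 7.16%, and for the difference of effects 0 of 8 beside 0.0%, with 0 unadjusted beside 1.63%. The median effect over the 8 members was 0.0011 in c-kit+ and 0.083 in CD44+ cells, against 0.016 and 0.010 over all genes.

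Hspa8, the constitutive HSP70 of the cytosol, read 13.66, 13.60 and 13.59 in c-kit+ 17βE against 13.67, 13.72 and 13.63 in c-kit+ control arrays. It read 13.64, 13.53 and 13.46 in CD44+ 17βE against 13.66, 13.76 and 13.27 in CD44+ control arrays. The groups overlapped in both fractions, and the averaged effect was -0.038 (SE 0.086, interval -0.22 to 0.15, limma adjusted p = 0.986). Of its 4 probe sets the dimmest gave other values. It read 7.18, 7.05 and 7.38 in c-kit+ 17βE against 7.03, 6.80 and 7.02 in c-kit+ control arrays, and 6.93, 7.10 and 6.81 in CD44+ 17βE against 6.68, 6.53 and 5.96 in CD44+ control arrays. The 17βE arrays stood above the control arrays without overlap in both fractions, as for 1.49% of all genes at their brightest probe set. The share over all probe sets was not computed. The averaged effect of this probe set, 0.41 (SE 0.12, limma adjusted p = 0.251 over all probe sets), did not pass.

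Hspa5, also called BiP, the HSP70 of the endoplasmic reticulum, read 13.68, 13.60 and 13.61 in c-kit+ 17βE against 13.56, 13.58 and 13.65 in c-kit+ control arrays. It read 13.56, 13.49 and 13.46 in CD44+ 17βE against 13.52, 13.52 and 13.11 in CD44+ control arrays. The averaged effect was 0.077 (SE 0.081, interval -0.098 to 0.25, limma adjusted p = 0.978). At the brightest probe set all c-kit+ arrays were above all CD44+ arrays within each kind of culture. The differences were small, 0.13 in 17βE cultures (adjusted p = 0.87) and 0.21 in control cultures (adjusted p = 0.458). In 10.0% and 7.41% of all genes the c-kit+ arrays were likewise higher without overlap in 17βE and control cultures. On the other Hspa5 probe sets the fractions overlapped in both cultures. Their differences in control cultures were 0.40 and -0.045 (limma adjusted p = 0.385 and 0.930 over all probe sets).

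Hsp90aa1, the inducible cytosolic HSP90, read 12.33, 12.27 and 12.19 in c-kit+ 17βE against 12.23, 12.24 and 12.35 in c-kit+ control arrays. It read 12.31, 12.23 and 12.25 in CD44+ 17βE against 12.31, 12.23 and 11.71 in CD44+ control arrays. Apart from CD44+ control replicate 3, all arrays lay within the same narrow band. The averaged effect was 0.082 (SE 0.096, interval -0.13 to 0.29, limma adjusted p = 0.98), and over its 5 probe sets it ranged from -0.24 to 0.090, none of which passed.

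Hsph1, a large HSP70 relative that exchanges the nucleotide of HSP70, read 10.58 on all 3 c-kit+ 17βE arrays, against 10.56, 10.75 and 10.79 in c-kit+ control arrays. It read 10.91, 10.85 and 10.70 in CD44+ 17βE against 11, 10.97 and 10.59 in CD44+ control arrays. The c-kit+ arrays were below the CD44+ arrays without overlap in 17βE cultures, as for 8.15% of all genes, and overlapped with them in control cultures. The c-kit+ minus CD44+ difference was -0.24 in 17βE cultures (interval -0.50 to 0.017, limma adjusted p = 0.567) and -0.15 in control cultures (interval -0.41 to 0.11, adjusted p = 0.656). The averaged 17βE effect was -0.077 (adjusted p = 0.98).

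Dnajb1, the J-domain partner that delivers substrates to HSP70, varied widely within groups, and none of its differences between groups passed. It read 11.80, 11.84 and 12.37 in c-kit+ 17βE against 11.87, 11.77 and 13.18 in c-kit+ control arrays. It read 12.12, 12.48 and 12.35 in CD44+ 17βE against 12.48, 12.12 and 11.59 in CD44+ control arrays. The third control replicates were the highest and the lowest of all 12 arrays, in c-kit+ and CD44+ cells in that order. The 17βE effect was -0.27 in c-kit+ cells (SE 0.32, interval -0.97 to 0.43, limma adjusted p = 0.999) and 0.25 in CD44+ cells (interval -0.45 to 0.96, adjusted p = 0.954). Without c-kit+ control replicate 3 the c-kit+ effect was 0.19, so its direction rested on that array. The second Dnajb1 probe set, much dimmer, lay between 6.18 and 6.66 on all arrays and did not show this spread.

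Those arrays also stood apart for other members and for the array as a whole. CD44+ control replicate 3 was the lowest of the 12 arrays for Hspa8, Hspa5, Hsp90aa1 and Dnajb1, and for 21.5% of all genes. The same array was the highest for Hspb1 and for 11.7% of all genes. The third c-kit+ control replicate was the highest for Hsp90aa1 and Dnajb1, the lowest for Hspa1b, and the lowest for 18.6% and the highest for 13.1% of all genes. With both arrays left out, as an alternative chosen after seeing the data, no member passed in any 17βE comparison and the effect on Dnajb1 was 0.19 in c-kit+ and 0.017 in CD44+ cells.

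Hspa1b and Hspb1 were lower in c-kit+ than in CD44+ cells of both cultures, and Hspb8 was lower in 17βE cultures. In 17βE cultures 3 of 8 members passed as lower and 0 as higher, beside 2.33% of all genes lower and 0.324% higher. In control cultures 2 of 8 passed as lower and 0 as higher, beside 1.76% of all genes lower and 0.539% higher. For Hspa1b the c-kit+ minus CD44+ difference was -1.28 in 17βE cultures (SE 0.16, 2.44-fold lower, limma adjusted p = 0.00077) and -1.51 in control cultures (SE 0.16, 2.84-fold lower, adjusted p = 0.000475). All 3 Hspa1b probe sets passed in both cultures, with differences from -1.64 to -1.28 in 17βE cultures and from -1.52 to -1.36 in control cultures, beside 1.9% and 1.65% of all probe sets that passed there in either direction. Hspa1a differed by -0.24 in 17βE cultures (adjusted p = 0.828) and -0.49 in control cultures (adjusted p = 0.25), and neither passed. In these bulk samples fewer cells of a type and less RNA per cell cannot be told apart.

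Hspb1, the small heat shock protein known as HSP25 in mice, read 6.00, 6.07 and 6.31 in c-kit+ and 6.98, 6.49 and 6.93 in CD44+ cells of 17βE cultures. It read 6.09, 5.89 and 5.93 in c-kit+ and 6.62, 6.66 and 6.98 in CD44+ cells of control cultures. Every c-kit+ array was below every CD44+ array, while within a fraction the 17βE and control arrays overlapped. The c-kit+ minus CD44+ difference was -0.67 in 17βE cultures (SE 0.15, 1.6-fold lower, limma adjusted p = 0.0259) and -0.78 in control cultures (SE 0.15, 1.72-fold lower, adjusted p = 0.0119). The second Hspb1 probe set read 5.11, 5.27 and 5.32 in c-kit+ against 6.47, 6.23 and 6.41 in CD44+ 17βE arrays, and 5.15, 5.25 and 5.18 in c-kit+ against 6.17, 5.92 and 6.73 in CD44+ control arrays. It gave -1.14 (adjusted p = 0.00252 over all probe sets) and -1.08 (adjusted p = 0.00532), also passing in both. With single arrays left out, the call in 17βE cultures was lost without CD44+ replicate 1 or 3 (adjusted p = 0.152 and 0.129) and without c-kit+ replicate 1 or 2 (adjusted p = 0.122 and 0.118), and the call in control cultures without CD44+ control replicate 3 (adjusted p = 0.0678).

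Hspb8, a small heat shock protein that works with the cochaperone BAG3 in clearing misfolded proteins, read 5.14, 5.06 and 5.38 in c-kit+ and 5.84, 5.62 and 5.65 in CD44+ cells of 17βE cultures. It read 5.29, 5.13 and 5.11 in c-kit+ and 5.76, 5.45 and 5.77 in CD44+ cells of control cultures. Again no c-kit+ array reached a CD44+ array. The difference was -0.51 in 17βE cultures (SE 0.12, 1.43-fold lower, limma adjusted p = 0.0454), which passed, and -0.48 in control cultures (SE 0.12, 1.4-fold lower, adjusted p = 0.0657), which did not. The 17βE call was lost in 9 of the 12 fits that left out 1 array (adjusted p from 0.0323 to 0.234 over the 12), and the control difference passed without CD44+ control replicate 2 (adjusted p = 0.0334). Its 3 probe sets disagreed, with differences from -0.51 to 0.13 in 17βE cultures, and none passed in the fit of every probe set.

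**Figure D3:**
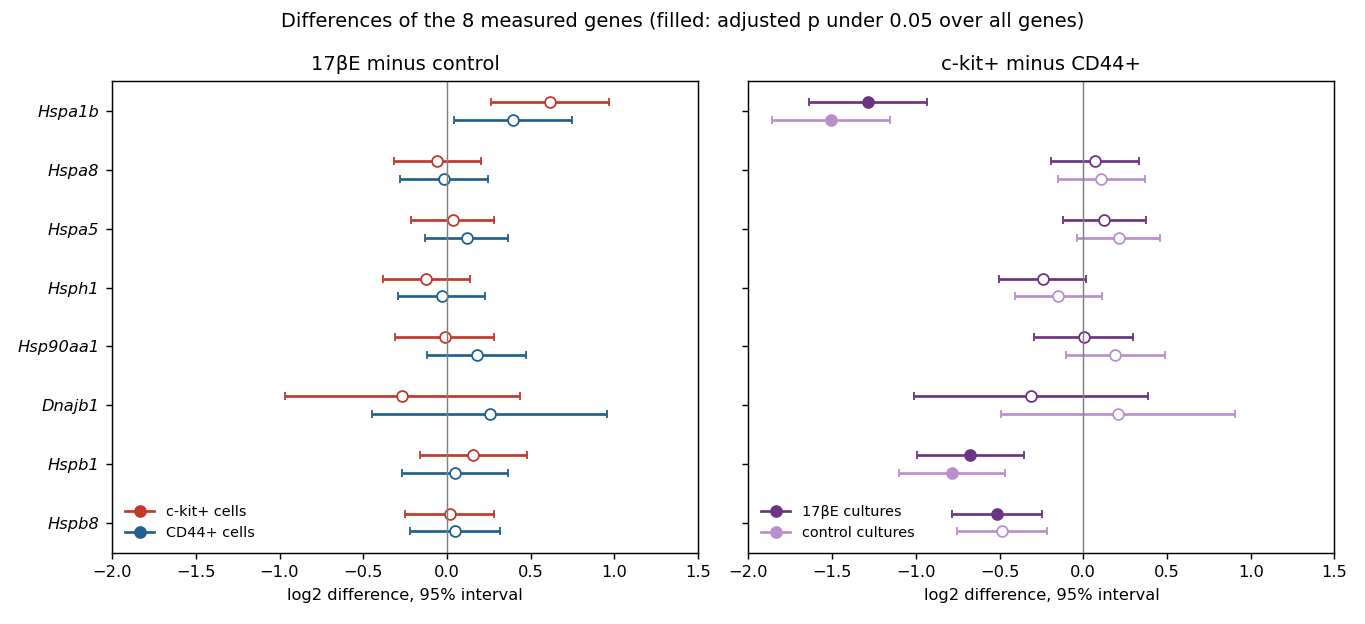
Log2 difference of the 8 measured genes with its 95% interval (horizontal axis); left, 17βE minus control in c-kit+ and in CD44+ cells; right, c-kit+ minus CD44+ in 17βE and in control cultures. Filled points passed an adjusted p of 0.05 over all genes: none on the left, and on the right Hspa1b and Hspb1 in both cultures and Hspb8 in 17βE cultures.

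Hspa1b, Hspb1 and Hspb8 had no c-kit+ array at or above a CD44+ array in either culture, a pattern that 3.76% of all genes shared. The fractions differed at the same time in RNA quality and in markers of other cells. The 3′ minus 5′ difference of control probe sets grows with degraded or short-copied RNA. For Gapdh it ran from 4.23 to 6.17 on c-kit+ and from 2.83 to 4.31 on CD44+ arrays. For beta-actin it ran from 2.34 to 4.68 on c-kit+ and from 1.52 to 2.14 on CD44+ arrays, without overlap. With the Gapdh difference as a covariate, Hspa1b alone passed in each culture. The difference of Hspb1 was then -0.58 in 17βE cultures (adjusted p = 0.226) and -0.68 in control cultures (adjusted p = 0.166), and that of Hspb8 in 17βE cultures was -0.49 (adjusted p = 0.237). Of 15 measured mesenchymal and osteoblast markers 7 passed as lower in c-kit+ cells of 17βE cultures and 6 in those of control cultures. Their mean levels ran from 5.23 to 5.81 on c-kit+ and from 6.15 to 7.05 on CD44+ arrays. Of 7 contractile markers 5 passed as lower in each culture. Their mean levels ran from 5.78 to 6.24 on c-kit+ and from 7.0 to 8.0 on CD44+ arrays. Beside these counts, 2.33% of all genes passed as lower in 17βE and 1.76% in control cultures. RNA quality largely followed the fraction on these arrays, so the covariate fit cannot tell the parts of quality and fraction apart. The part of mesenchymal and contractile cells in the members' differences was not tested.

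Mean macrophage and neutrophil marker levels did not overlap between the fractions either. Of 18 macrophage and monocyte markers 2 passed as higher in c-kit+ cells of 17βE cultures and 3 in those of control cultures. Beside these counts, 0.324% of all genes passed as higher in 17βE and 0.539% in control cultures. The mean level of the 18 markers ran from 11.84 to 12.03 on c-kit+ arrays and was no higher than 11.81 on CD44+ arrays. The mean level of 12 neutrophil markers ran from 4.64 to 4.93 on c-kit+ and from 4.99 to 5.25 on CD44+ arrays. The median c-kit+ minus CD44+ difference in 17βE cultures was 0.16 for the macrophage, -0.16 for the neutrophil, -0.15 for the endothelial and -0.14 for the mesenchymal list, beside 0.026 over all genes. In control cultures it was 0.27 for the macrophage, -0.23 for the neutrophil, -0.087 for the endothelial and -0.31 for the mesenchymal list, beside 0.0052 over all genes. The part of these cells in the members' values was not tested either. Of 13 stem and progenitor markers 1 passed as lower in c-kit+ cells of 17βE cultures and 0 in those of control cultures. The shares of all genes that passed as lower there were 2.33% and 1.76%. No mast cell, neutrophil, endothelial, erythroid or lymphoid marker passed in any comparison (9, 12, 10, 6 and 10 measured). Cd3e, of T cells, averaged 5.25 to 5.49 over the groups, Pecam1, of endothelial cells, 3.65 to 3.84, and Mpo, of granulocyte precursors, 4.22 to 4.68. Cpa3, of mast cells, averaged 3.81 to 4.59, with 1 c-kit+ 17βE array at 6.31.

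Immediate early genes, which respond quickly to stress and to cell handling, had higher mean levels on the 17βE than on the control arrays of each fraction. The mean level of 20 immediate early genes was 10.25 to 10.30 on c-kit+ 17βE against 9.61 to 10.11 on c-kit+ control arrays, and 10.23 to 10.29 on CD44+ 17βE against 9.64 to 10.19 on CD44+ control arrays. Of these genes 2 passed as higher in the averaged effect, beside 0.951% of all genes that passed it in either direction. The 2 were Egr2 at 0.74 (SE 0.14, limma adjusted p = 0.0191) and Ier3 at 0.40 (SE 0.078, adjusted p = 0.0247). The median effect over the list was 0.39 beside 0.015 over all genes. Between the fractions 1 of the 20 passed as lower in c-kit+ cells of 17βE cultures and 2 in those of control cultures. The shares of all genes were 2.33% and 1.76%. The median c-kit+ minus CD44+ difference over the list was 0.062 in 17βE and -0.026 in control cultures. The part of immediate early genes in the values of Hspa1b was not tested.

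Most of a wider set of chaperone, cochaperone, stress regulator and oxidative stress genes did not pass in any comparison. Of 111 further genes in 9 lists 109 were measured, and with 17βE 0 of 109 passed in either fraction, in the difference or in the averaged effect. Between the fractions 2 of 109 passed as lower in c-kit+ cells of 17βE cultures and 1 of 109 in those of control cultures, against 2.33% and 1.76% of all genes.

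Among 7 other small heat shock proteins Cryab, alpha B crystallin, was the gene that passed. It read 5.73, 4.52 and 5.04 in c-kit+ and 7.75, 7.02 and 7.37 in CD44+ cells of 17βE cultures, a difference of -2.29 (SE 0.33, limma adjusted p = 0.00154). It read 5.12, 4.62 and 4.10 in c-kit+ and 7.27, 6.56 and 7.42 in CD44+ cells of control cultures, a difference of -2.47 (SE 0.33, adjusted p = 0.00144). The median over the 7 genes was 0.049 in 17βE and -0.079 in control cultures, beside 0.026 and 0.0052 over all genes, with 5 of the 7 differences above 0 in 17βE and 1 of 7 in control cultures. With 17βE the averaged effect on Cryab was 0.39 (SE 0.23, adjusted p = 0.884).

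Cochaperones of HSP70 gave 1 gene that passed. Bag2, a nucleotide exchange factor that restrains the ubiquitin ligase CHIP, was lower in c-kit+ cells of 17βE cultures by a difference of -0.98 (SE 0.17, limma adjusted p = 0.00495). It read 5.18, 5.80 and 5.38 in c-kit+ against 6.69, 6.34 and 6.26 in CD44+ 17βE arrays, and 5.75, 5.86 and 5.79 in c-kit+ against 6.52, 6.24 and 6.09 in CD44+ control arrays. In control cultures its difference of -0.48 did not pass (adjusted p = 0.192), though the arrays did not overlap there either. The difference of its 17βE effects, -0.50 (SE 0.24, adjusted p = 1 after rounding), did not pass. Of 16 other J-domain genes none passed; Dnajb14 had 0.73 (adjusted p = 0.0837) and Dnaja4 -0.63 (adjusted p = 0.102) between the fractions in control cultures. Of 10 other HSP70 and HSP110 genes none passed.

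HSP90 cochaperones, of which 12 of 14 were measured, did not pass. Stip1, which links HSP70 to HSP90, had a c-kit+ minus CD44+ difference of -0.21 in 17βE cultures (limma adjusted p = 0.587) and -0.41 in control cultures (SE 0.11, adjusted p = 0.0718). The median averaged effect of 17βE over the list was -0.025. Of 14 chaperonin and mitochondrial chaperone genes none passed; Hspd1, the mitochondrial HSP60, had an averaged effect of 0.18 (SE 0.11, adjusted p = 0.915). Of 24 genes of endoplasmic reticulum folding and the unfolded protein response, the pathway that induces Hspa5, none passed either. Herpud1, induced by that response, had the smallest p of the list, at an averaged effect of 0.27 (SE 0.076, adjusted p = 0.179). Of 8 other heat shock factors and their regulators none passed. Hsbp1, which binds and restrains heat shock factor 1, had a c-kit+ minus CD44+ difference of 0.23 in 17βE cultures (SE 0.12, adjusted p = 0.634) and 0.34 in control cultures (SE 0.12, adjusted p = 0.215).

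The genes whose values over the 12 arrays were most like a member's differed between members. Likeness was Pearson's r among up to 2353 genes at or above the median level and ranging over at least 1 on the log2 scale, and since the arrays form 4 groups it is a description of these arrays. For Dnajb1 they were Chordc1 (r = 0.993), an HSP90 cochaperone, Desi2 (r = 0.993) and Piga (r = 0.985). Chordc1 read 11.80, 11.87 and 12.34 in c-kit+ 17βE against 11.99, 11.84 and 12.91 in c-kit+ control arrays, and 12.11, 12.36 and 12.25 in CD44+ 17βE against 12.42, 12.15 and 11.67 in CD44+ control arrays. It thus shared Dnajb1's highest and lowest arrays.

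For Hspa1b they were Thbs2, a matrix protein (r = 0.979), Fscn1, an actin-bundling protein (r = 0.974), and Itgb7, an integrin chain (r = 0.973). Thbs2 read 5.39, 5.42 and 5.19 in c-kit+ 17βE against 4.25, 4.71 and 4.81 in c-kit+ control arrays, and 8.95, 7.72 and 8.30 in CD44+ 17βE against 7.77, 7.08 and 7.74 in CD44+ control arrays. No heat shock gene was among the 3, but Hspa8, Hspa5, Hsph1, Hsp90aa1 and Hspb8 ranged over less than 1 and could not be named. For Hspb1 they were Pcolce (r = 0.963), Gas1 (r = 0.959) and Igdcc4 (r = 0.959), and for Hspb8 Yap1 (r = 0.972), Tpm2 (r = 0.969) and Lurap1l (r = 0.967). All 9 of these genes were lower in c-kit+ than in CD44+ cells and passed in both cultures. Of all genes 2.33% passed as lower in 17βE and 1.76% in control cultures. The 9 were picked on these same arrays for likeness to members that differ between the fractions, so their count adds no separate evidence.

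**Figure D4:**
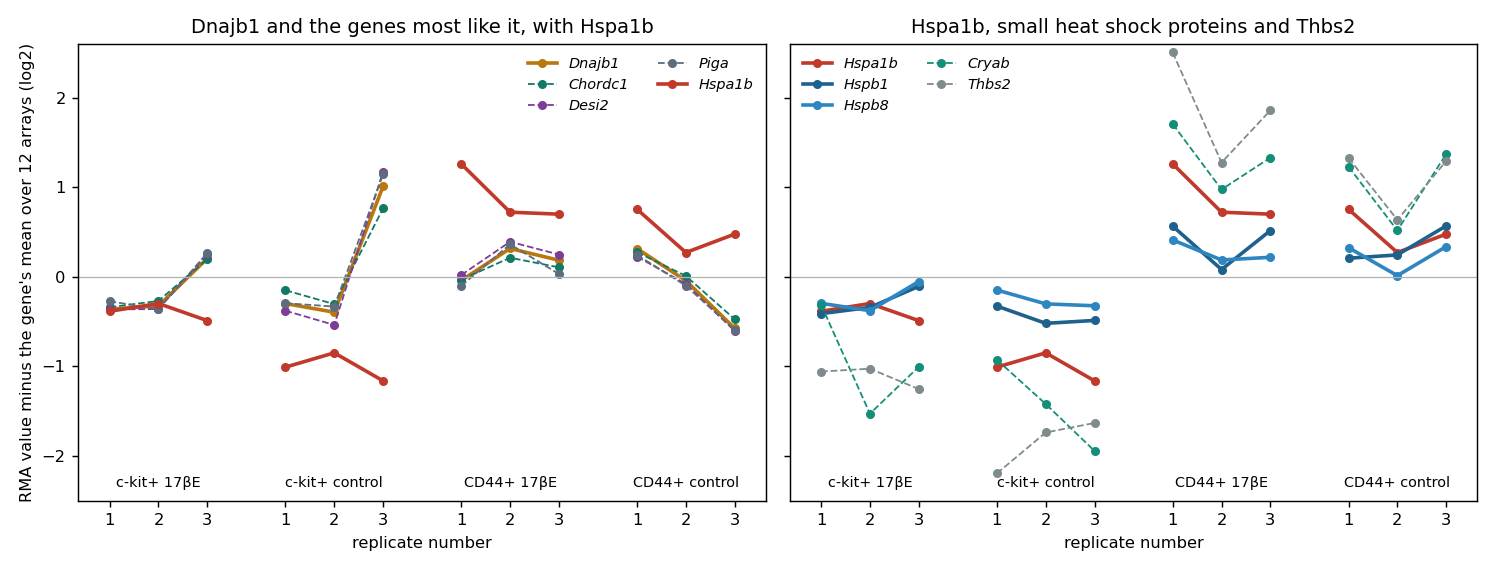
RMA value minus the gene's mean over 12 arrays (log2, vertical axis) by group and replicate number; lines join the arrays of a group to guide the eye and imply no order. Left, Dnajb1, its 3 most similar genes and Hspa1b; right, Hspa1b, Hspb1, Hspb8, Cryab and Thbs2. Dnajb1 and its like genes peak on c-kit+ control replicate 3 and dip on CD44+ control replicate 3, whereas Hspa1b does not follow them.

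For Hspa5 the most similar genes were Ppip5k2 (r = 0.963), Acap2 (r = 0.961) and Mcm4 (r = 0.955), and for Hsp90aa1 Srsf3 (r = 0.928), Ppp1cb (r = 0.921) and Spop (r = 0.920). For Hspa8 they were Aco1 (r = 0.877), Mcm4 (r = 0.849) and Dock10 (r = 0.842), and for Hsph1 Slc5a3, Slc7a2 and F11r, with r from 0.777 to 0.837. The array ranges of Hspa8, Hspa5, Hsph1 and Hsp90aa1 were 0.49, 0.57, 0.44 and 0.64 on the log2 scale, so small differences between arrays decide these values of r.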

How the data were processed

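The authors deposited RMA values in log2 units, per the submitters' processing notes; no version is given there. RNA was amplified in 2 cycles before labelling, per the labels. Of 45101 probe sets 64 were controls, 34945 named 1 gene in the platform's annotation, 932 several and 9160 none. The brightest probe set of each gene gave 18193 genes, used as deposited with no filter; array medians lay between 4.75 and 4.84.

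Tests used limma 3.58.1 in R 4.3.3, with 1 mean per group over 12 arrays, empirical Bayes moderation and Benjamini-Hochberg adjustment over all genes at 0.05. The 6 comparisons were 17βE minus control in each fraction, the difference and the mean of these effects, and the c-kit+ minus CD44+ difference in each kind of culture. Positive values mean higher in 17βE, or in c-kit+ cells. Fold values are powers of 2 of log2 differences. The scripts, in Python 3.11.15 with pandas 2.3.3 and matplotlib 3.10.9, were tested on simulated data.

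Members and lists were chosen with earlier results of these data known. Named beside members are list genes that passed, up to 4 per list and comparison by p, or up to 2 of smallest p where none passed, not all of which are printed; the 3 genes most like each member; Kit, Cd44, Esr1, Esr2; and defining markers. Promoter and gene coordinates are RefSeq's (GRCm38.p6). Replicate numbers were taken to pair groups where every pair's deviations correlated above 0.1. CD44+ 17βE with control (0.303, 0.368, 0.322) and the fractions in 17βE cultures (0.447, 0.192, 0.312) met this. The pairs of c-kit+ 17βE with control (0.345, 0.092, 0.253) and of the fractions in control cultures (0.175, 0.122, -0.208) did not. Arrays of unlike number could also exceed 0.1, as c-kit+ control replicate 2 with CD44+ control replicate 3 (0.391). The reported tests used no pairing, and the replicate number entered only as a block among the alternatives.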

Additional observations from a re-analysis of the deposited data

How the results depend on the processing

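Members that passed were recounted under 11 alternatives that leave out no array, where they apply, and in 12 fits that leave out 1 array each, and, chosen after seeing the data, with both control replicates numbered 3 left out. In c-kit+ cells and for the difference of effects the count stayed at 0. In CD44+ cells it was 1 with array weights (Hspa1b, adjusted p = 0.0147) against 0 otherwise. For the averaged 17βE effect it was 1, Hspa1b, at a threshold of 0.1, with all probe sets of a gene averaged (adjusted p = 0.00899), with array weights (adjusted p = 0.00799) and with the replicate block (adjusted p = 0.0325), and 0 to 1 with 1 array left out. Between the fractions in control cultures it was 1 with the Gapdh covariate and 1 without both control replicates numbered 3, against 2, 3 at a threshold of 0.1 and with the replicate block, and 1 to 3 with 1 array left out. In 17βE cultures it was 1 with the Gapdh covariate, against 3, and 1 to 3 with 1 array left out. It was 2 there, without Hspb8, with all probe sets of a gene averaged (adjusted p = 0.258), every probe set tested (adjusted p = 0.0575) and median centring (adjusted p = 0.0638), and among brighter genes, where Hspb8 was not tested. The cause was not tested. The replicate block also brought Hspb8 past the threshold in control cultures (adjusted p = 0.0329) and changed no other member's call.

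Of 48 member differences the 5 that passed kept their sign throughout, and 27 of the other 43 changed sign under at least 1 alternative. Hspa1b passed between the fractions in all 23 alternative fits, with differences from -1.50 to -1.10 in 17βE and -1.70 to -1.27 in control cultures. The calls of Hspb1 were lost in 5 of 23 fits in 17βE and 3 of 23 in control cultures, and that of Hspb8 in 17βE cultures in 13 of 22. Counts over all genes moved more: 2 to 62 against 33 in c-kit+ cells, 22 to 1405 against 53 in CD44+ cells, 104 to 523 against 173 for the averaged effect, 250 to 779 against 483 between the fractions in 17βE and 196 to 1058 against 418 in control cultures. With 3 arrays a group, effects of the size seen for most members could not be told from 0, and low signal over background limits Hspb8, read at 5.06 to 5.84.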

Other observations

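Genes of the oxidative stress response, which many stresses switch on beside the heat shock genes, were measured as a list of 10. With 17βE all 10 had positive differences in c-kit+ and in CD44+ cells, and 0 of 10 passed in any comparison. The median averaged effect was 0.24 on the log2 scale, beside 0.015 over all genes. Nfe2l2, the factor that drives this response, had an averaged effect of 0.49 (SE 0.13, limma adjusted p = 0.169), and Sod2, the mitochondrial superoxide dismutase, 0.38 (SE 0.12, adjusted p = 0.293). Between the fractions Nqo1, a quinone reductase, was the gene of smallest p, with c-kit+ minus CD44+ differences of -0.51 in 17βE cultures (adjusted p = 0.277) and -0.61 in control cultures (adjusted p = 0.124).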
